A study of Mus musculus with 24 samples.

Results

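Gene expression was compared in the retroperitoneal white adipose tissue of high-fat-fed daughters of vitamin D-deficient mothers (VDD HF) and of high-fat-fed daughters of control mothers (CTRL HF). The comparison covered every gene entry of the table deposited for these 2 groups of 3 mice, 56895 entries, of which 16480 were tested because 3 or more of the 6 libraries reached 10 normalized reads. The 6 libraries are part of a series of 24 libraries in 8 groups, which also holds sons and low-fat-fed offspring.

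All mice were labelled C57BL/6J, and the study's methods name the mice obtained as C57BL/6JRJ. The mothers received an AIN-93G diet with vitamin D3 at 1.0 IU/g (CTRL) or 0.0 IU/g (VDD) for 8 weeks before they were mated, and by the study's account stayed on it through gestation. From birth to weaning both groups were kept on the control diet. From 6 weeks of age the daughters of both groups received a diet with 45% of its energy from fat for 8 weeks, so the 2 groups shared sex, strain and post-weaning diet and differed in the diet of the mother. By the study's account CTRL HF females were also heavier and had a higher adiposity index than VDD HF females. The part of adiposity in the values below was not tested. RNA was extracted with TRIzol and stranded mRNA libraries were sequenced. The sources used here do not name the litter of a mouse or a sequencing batch, so p-values measure the spread between these mice only, and litter-mates cannot be told from unrelated mice.

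White adipocytes store triglyceride and are embedded in a collagen-rich matrix made largely by stromal progenitor cells. Their mitochondria oxidize fatty acids and branched-chain amino acids through the citrate cycle and the respiratory chain, whose subunits are encoded partly in the nucleus and partly in the mitochondrial genome. Some white depots also contain beige adipocytes, which carry Ucp1, the uncoupling protein that releases the proton gradient of the respiratory chain as heat. Vitamin D acts through the vitamin D receptor (Vdr), a nuclear receptor that partners with retinoid X receptors.

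The 6 libraries held 13346779 to 18484346 reads on genes, and their log2 values correlated across genes with Pearson's r of 0.875 to 0.963. The adipocyte hormone Adipoq was abundant in all 6, at 62432, 82851 and 72972 normalized reads in CTRL HF and 105369, 47423 and 55545 in VDD HF (here and below in order of mouse number, 2290, 2291 and 2292, then 2081, 2083 and 2121). Markers of neighbouring tissue differed between single mice. The summed reads of the skeletal muscle list were 2119, 1598 and 31524 in CTRL HF and 2266, 70910 and 1485 in VDD HF. The summed adrenal list was 11019, 1235 and 35555 in CTRL HF against 617, 475 and 21043 in VDD HF, with Cyp11b2 at 0 in all 6 libraries. The B cell list reached 46873 in CTRL HF mouse 2291 and lay between 1603 and 6556 in the others. Some medians below are given also without CTRL HF mouse 2292 and VDD HF mouse 2083, the mice with the most muscle transcripts in their groups. They include the respiratory chain, mitochondrially encoded, citrate cycle, fatty acid oxidation and thermogenic medians.

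The leading difference was a set of mitochondrial genes that were higher, and of matrix genes that were lower, in VDD HF than in CTRL HF daughters. Of 60 tested nuclear subunits of the respiratory chain all 60 were higher, and in 56 the groups did not overlap. Of 25 tested collagens all 25 were lower, and in 15 the groups did not overlap. For comparison, over all 16480 genes the groups did not overlap in 1834 genes that were higher (11.1%) and in 1943 that were lower (11.8%), and the median log2 difference was 0.0013. The tissue was analysed in bulk, so fewer cells of a type and less RNA per cell cannot be told apart in any of these values.

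No single gene passed the limma test in this comparison alone. On the log2 values, 0 of 16480 genes (0%) passed the rule of an adjusted p under 0.01 with a fold over 1.5 or under 0.66. The smallest adjusted p (limma) was 0.131. By the study's account, DESeq2 called genes in both directions here and in the contrasts given below, under like p and fold limits. Why the 2 methods differ was not tested. At an unadjusted p under 0.05 there were 2752 genes, and limma-voom also called 0. With an unadjusted p under 0.01 and the same fold limits, 431 genes were higher (2.62%) and 391 were lower (2.37%) in VDD HF. Scaling by the upper quartile, which moved the median of all genes by -0.12 on the log2 scale, turned this split into 271 higher and 565 lower. The count of higher genes was 212 without CTRL HF mouse 2290, 228 without CTRL HF mouse 2292 and 259 without VDD HF mouse 2083. That of lower genes was 99 without CTRL HF mouse 2290, 179 without 2292 and 258 without 2291, and 244 without VDD HF mouse 2083 and 848 without 2121.

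When the spread was estimated from all 24 libraries, 5 of 18399 genes (0.0272%) passed the rule, all higher in VDD HF. They were Sephs2, Cox8b, Acacb, P2rx5 and XLOC_010710, a locus added by transcript assembly, each with an adjusted p of 0.00595. The log2 fold changes in that fit were 1.46 (SE 0.21), 4.15 (SE 0.61), 2.66 (SE 0.37), 2.42 (SE 0.36) and 2.82 (SE 0.39). At an adjusted p under 0.05 the same fit held 176 higher (0.957%) and 97 lower genes (0.527%).

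Sephs2, which makes the selenium donor used to build selenocysteine, lies on chromosome 7 (GRCm38.p6, chr7:127271879-127274059). It had 673, 691 and 662 normalized reads in CTRL HF and 1984, 2222 and 1510.1 in VDD HF. Every VDD HF value was more than the highest CTRL HF value, and the control mice lay close together. The log2 fold change was 1.48 (SE 0.17, adjusted p = 0.131, limma, 6 libraries), within 1.36 to 1.63 when any 1 library was left out.

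**Figure D1:**
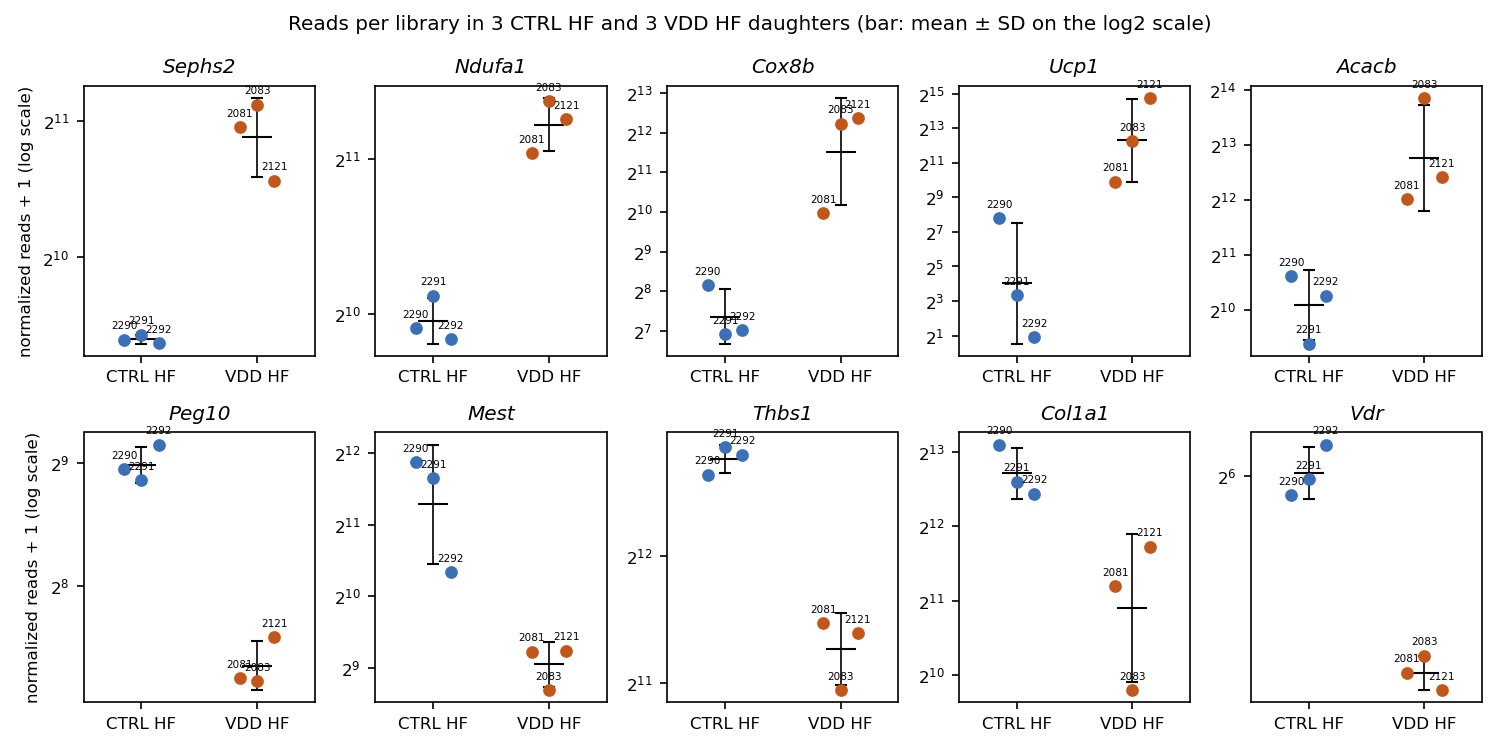
Normalized reads plus 1 (log axis, each panel with its own range) of 10 genes in the 3 CTRL HF (blue) and 3 VDD HF (orange) daughters, labelled by mouse number, with bars for the mean ± SD on the log2 scale. In all 10 the groups do not overlap; the VDD HF mice lie above the controls in the 5 genes of the upper row and below them in the 5 of the lower row, and the spread within a group is widest for Ucp1.

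Among the nuclear respiratory chain subunits the log2 differences ran from 0.033 to 1.6, with a median of 1.07 (1.03 without CTRL HF mouse 2292 and VDD HF mouse 2083). Complex I, which takes electrons from NADH, had 24 subunits tested with a median of 1.07, and 22 of them did not overlap. Complex II, shared with the citrate cycle, had a median of 1.17 over 4 subunits, 3 without overlap. Complex III had a median of 1.37 over 7 subunits and complex IV of 1.19 over 10, and no subunit of either overlapped. ATP synthase, which uses the proton gradient, had the lowest median, 0.93 over 14 subunits, of which 13 did not overlap. In the fit over 24 libraries 32 of the 60 subunits had an adjusted p under 0.05, against 0.957% of all genes in that direction. The differences were thus spread over all 5 complexes.

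Ndufa1, a subunit of complex I on the X chromosome, had 961, 1113 and 917 normalized reads in CTRL HF and 2100.4, 2649 and 2442 in VDD HF. Cox6c, a subunit of complex IV, had 3456, 3952 and 4231 against 8469, 8634 and 9366, and Cox7b of the same complex 2084, 2441 and 2386 against 4952, 5712 and 6219. In each of these genes the lowest VDD HF mouse lay at more than 1.5 times the highest control mouse. The log2 fold changes were 1.26 (SE 0.15), 1.19 (SE 0.16) and 1.29 (SE 0.15), and those of Uqcr10 and Uqcrb, both of complex III, were 1.29 (SE 0.18) and 1.06 (SE 0.15), all with an adjusted p of 0.131. Within the VDD HF group, mouse 2081 was the lowest of the 3 in 49 of the 60 subunits.

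**Figure D2:**
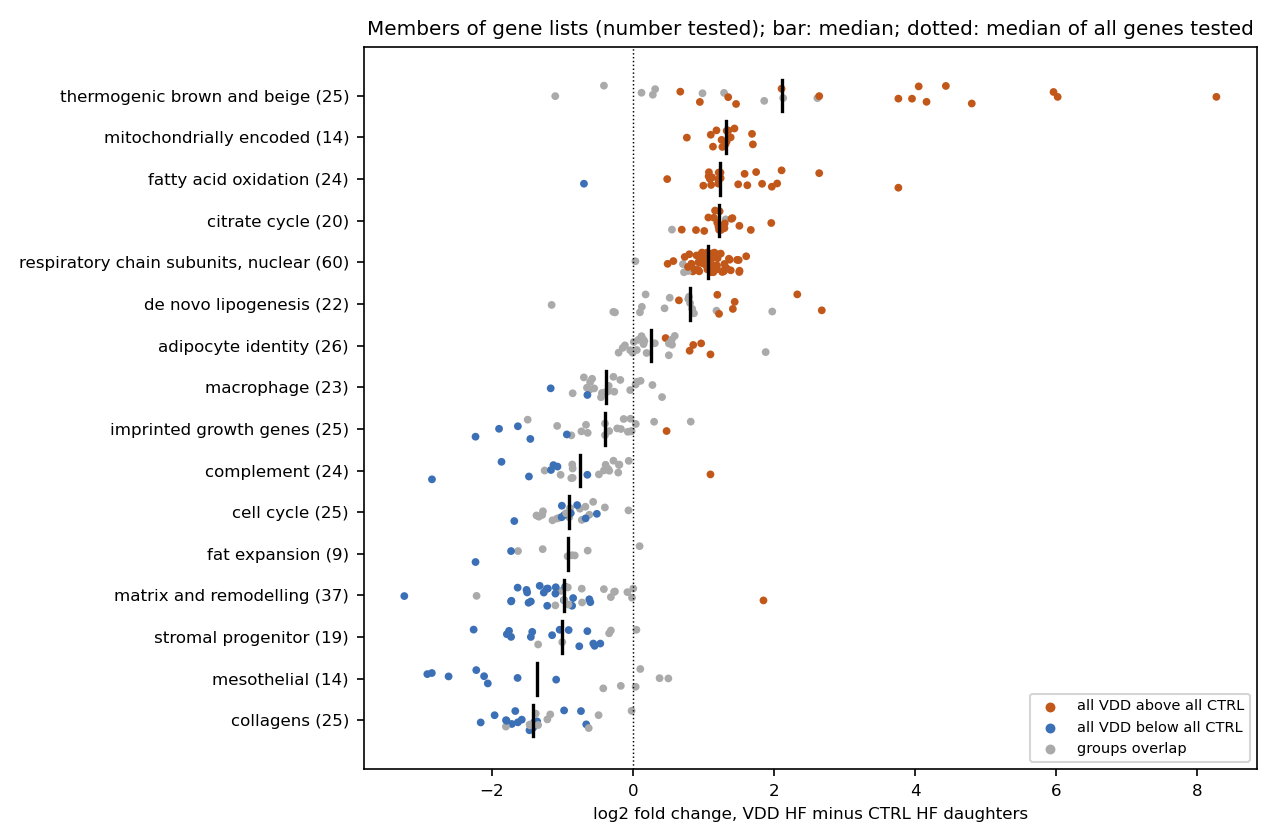
Log2 fold change (VDD HF minus CTRL HF, horizontal axis) of each tested member of 16 gene lists, with a bar at the median of the list and a dotted line at the median of all genes tested. Orange members had all VDD HF mice above all controls, blue members had all below and grey members overlapped; the 60 respiratory chain subunits cluster around 1.07 and the 25 collagens around -1.42.

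Since every subunit was higher, their promoters were searched for 3 motifs on both strands, in the 300 bases from 250 before to 50 after the start given by RefSeq (GRCm38.p6). Windows were available for 47 of the 60 genes. The NRF1 half-site GCGCATG was present in 9 (19.1%), against 6.56% of the 11493 tested genes with a window. The ETS and GABPA site CCGGAAG was present in 13 (27.7%) against 16.9%, and the ERR half-site AAGGTCA in 5 (10.6%) against 3.20%. Other lists with higher members shared this in part, each above all tested genes in some but not all of the 3 motifs. The citrate cycle promoters held the ETS site in 22.2%, the NRF1 half-site in 5.56% and the ERR half-site in none of 18. The thermogenic promoters held the NRF1 and the ERR half-site in 11.1% each and the ETS site in none of 18. Fatty acid oxidation held the NRF1 half-site in 4 of 19 (21.1%), the ERR half-site in 1 and the ETS site in 2. Among the lists with lower members, the 20 collagen promoters held neither the NRF1 nor the ETS motif, and held the ERR half-site in 5%. The matrix and remodelling promoters held the NRF1 half-site in 9.52% of 21, the ETS site in 4.76% and the ERR half-site in none. A match describes letters in this window and is not evidence of binding. Below are 4 windows that hold both the NRF1 and the ETS motif (Atp5k and Atp5l also the ERR half-site), from the strand of the gene and with the motifs in capitals on whichever strand they lie. They were chosen for their motifs after the values were seen. Sdhb, of complex II, spans chr4:140961021-140961320 (plus strand); Cox6a1, of complex IV, chr5:115348909-115349208 (minus). Atp5k, of ATP synthase, spans chr5:108434350-108434649 (minus) and Atp5l, of the same complex, chr9:44920693-44920992 (minus).
Sdhb: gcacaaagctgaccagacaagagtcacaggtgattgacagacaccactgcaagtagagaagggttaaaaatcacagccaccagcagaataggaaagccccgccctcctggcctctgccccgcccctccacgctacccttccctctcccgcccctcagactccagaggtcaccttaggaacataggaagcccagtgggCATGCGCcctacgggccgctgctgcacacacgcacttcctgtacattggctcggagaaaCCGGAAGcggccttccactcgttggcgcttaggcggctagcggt
Cox6a1: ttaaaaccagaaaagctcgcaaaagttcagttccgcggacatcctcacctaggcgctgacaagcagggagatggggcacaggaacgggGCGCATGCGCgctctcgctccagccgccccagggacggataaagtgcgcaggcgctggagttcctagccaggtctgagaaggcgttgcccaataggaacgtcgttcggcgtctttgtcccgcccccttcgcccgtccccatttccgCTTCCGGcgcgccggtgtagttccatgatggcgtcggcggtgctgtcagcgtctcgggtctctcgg
Atp5k: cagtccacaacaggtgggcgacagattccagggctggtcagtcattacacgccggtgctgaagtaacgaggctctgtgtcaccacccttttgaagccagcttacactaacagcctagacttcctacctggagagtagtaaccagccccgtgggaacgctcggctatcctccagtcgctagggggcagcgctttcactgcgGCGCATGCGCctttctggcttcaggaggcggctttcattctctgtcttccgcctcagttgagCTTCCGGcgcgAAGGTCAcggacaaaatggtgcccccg
Atp5l: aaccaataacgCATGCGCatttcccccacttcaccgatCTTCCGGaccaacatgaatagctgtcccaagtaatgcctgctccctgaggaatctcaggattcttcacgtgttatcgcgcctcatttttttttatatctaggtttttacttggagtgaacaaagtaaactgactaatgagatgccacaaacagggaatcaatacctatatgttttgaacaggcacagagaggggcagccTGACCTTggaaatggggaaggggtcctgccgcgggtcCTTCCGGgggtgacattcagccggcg

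The log2 difference of Sdhb was 1.29 and that of Cox6a1 1.36. Those of Atp5k and Atp5l were 1.05 and 0.98. All 4 lay within the range of the other subunits and none overlapped between groups.

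The genes of the mitochondrial genome were higher together with the nuclear subunits. All 14 tested members were higher in VDD HF and none overlapped, with a median log2 difference of 1.32. Without CTRL HF mouse 2292 and VDD HF mouse 2083 the median was 1.21. Their share of all reads was 5.62, 5.40 and 5.59% in CTRL HF and 8.83, 12.5 and 12.8% in VDD HF. The lowest VDD HF mouse was thus above the highest control mouse by more than the whole range of the controls. None of the 14 had an adjusted p under 0.05 in the fit over 24 libraries. The 44 tested mitochondrial ribosome genes, which translate the messenger RNAs among them, were all higher, but by a median of only 0.44, with 20 not overlapping.

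The pathways that feed the respiratory chain were higher too. All 20 citrate cycle genes were higher (18 without overlap, median 1.22) and 12 of them had an adjusted p under 0.05 in the fit over 24 libraries. In fatty acid oxidation 23 of 24 genes were higher, all 23 without overlap, with a median of 1.23, and 15 passed that threshold. Acadvl and Hadhb, which act in mitochondrial beta-oxidation, had log2 differences of 2.04 (SE 0.42) and 1.97 (SE 0.42), and Ppara, the nuclear receptor that drives this programme in many tissues, 2.64 (SE 0.72). Without CTRL HF mouse 2292 and VDD HF mouse 2083 the medians were 0.90 for the citrate cycle and 0.998 for fatty acid oxidation, and the differences were 1.65 for Acadvl, 1.57 for Hadhb and 1.87 for Ppara. The 17 genes of branched-chain amino acid breakdown were all higher (13 without overlap, median 0.66).

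The carnitine palmitoyltransferases, which bring fatty acids into mitochondria, differed in direction. Cpt1b, the form typical of muscle and brown fat, had 5.0, 1.0 and 2.6 normalized reads in CTRL HF and 10.9, 146 and 61.3 in VDD HF. Cpt1a, the form typical of liver, had 1524, 1209 and 1811 against 1061, 777 and 948 and was the only member of the list that was lower, also without overlap. The log2 fold changes were 3.76 (SE 0.95, adjusted p = 0.165) and -0.70 (SE 0.20, adjusted p = 0.184). Cpt1b is also abundant in skeletal muscle, and its highest value came from mouse 2083, which had the most muscle transcripts. The part of muscle transcripts in its value was not tested, since without mouse 2083 the gene no longer reached the read minimum.

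The thermogenic genes had the largest differences and the largest spread. Of 25 tested genes of brown and beige adipocytes 23 were higher in VDD HF, 15 without overlap, with a median log2 difference of 2.10. That median equalled the difference of Pdk4, which the glucocorticoid response list also holds. The thermogenic list likewise shares Ppara with fatty acid oxidation and Cidea with lipolysis and lipid droplet. Ucp1 (chr8:83290348-83298456) had 223, 9.2 and 0.9 normalized reads in CTRL HF and 951, 4853 and 27105 in VDD HF. The lowest VDD HF mouse was above the highest control mouse, while the mice within each group differed widely. On the log2(reads + 1) scale of all fold changes here the difference was 8.27 (SE 1.86, adjusted p = 0.152), and adding 10 in place of 1 made it 7.10, since the control values are near 0.

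Cidea, a lipid droplet protein abundant in brown fat, had 225, 41.9 and 19.1 normalized reads in CTRL HF and 833, 10984 and 5799 in VDD HF. Elovl3, a fatty acid elongase of thermogenic fat, had 6.4, 2.0 and 0.9 against 42.1, 333 and 704. The same order, with mouse 2081 lowest among the VDD HF daughters, held for 22 of the 25 genes. Otop1, a proton channel, and Slc27a2, a fatty acid transport protein, had log2 fold changes of 4.80 (SE 1.26) and 4.43 (SE 1.01). The summed thermogenic list was 10860, 9305 and 8086 in CTRL HF and 17079, 73173 and 63461 in VDD HF. Its groups did not overlap, and the difference was carried mainly by VDD HF mice 2083 and 2121. Without mouse 2083 the median was 1.25 and without CTRL HF mouse 2292 and VDD HF mouse 2083 it was 1.19.

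Cox8b (chr7:140898942-140900446) and Cox7a1 encode the forms of 2 complex IV subunits used in muscle and brown fat. Cox8b had 283, 119.7 and 128 normalized reads in CTRL HF and 997, 4787 and 5288 in VDD HF, a log2 fold change of 4.16 (SE 0.67). Cox7a1 had 57.5, 78.8 and 42.5 against 277, 1575 and 1723, a log2 fold change of 3.95 (SE 0.69). Both are also transcribed in skeletal muscle, and without CTRL HF mouse 2292 and VDD HF mouse 2083 the log2 fold changes were 3.63 and 3.34. Zic1, a marker of classical brown fat, was at 0 in 4 of the 6 libraries. P2rx5, an ATP-gated channel found on brown and beige adipocytes, had 49.7, 65.5 and 51.2 in CTRL HF and 164, 491 and 341 in VDD HF.

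**Figure D3:**
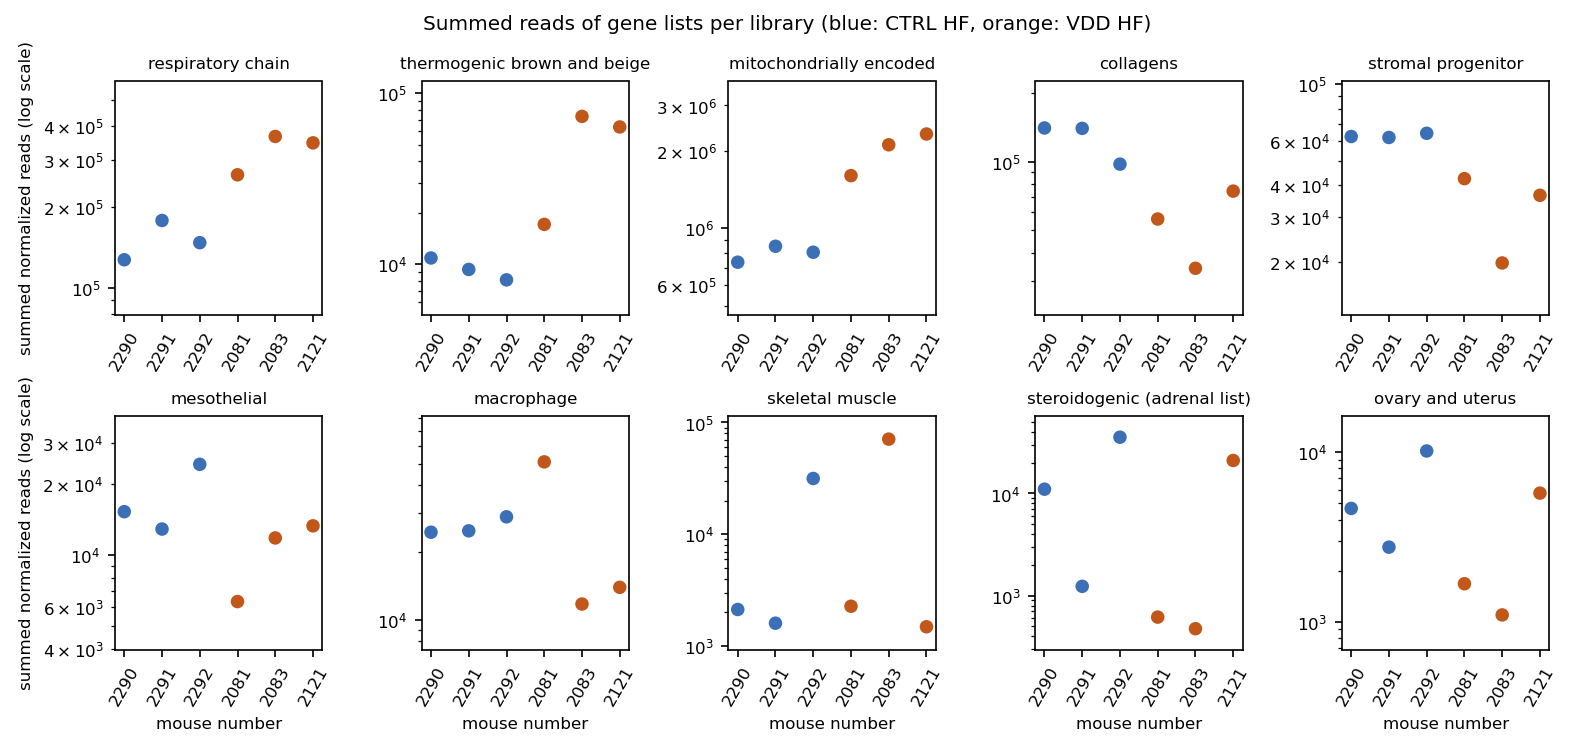
Summed normalized reads (log axis, each panel with its own range) of 10 gene lists in each CTRL HF (blue) and VDD HF (orange) daughter, by mouse number; no error bars are drawn since each point is 1 library. The respiratory chain, thermogenic and mitochondrially encoded sums are higher in all 3 VDD HF mice and the collagen and stromal sums lower, while the muscle sum is highest in mice 2083 and 2292 and the macrophage sum in mouse 2081.

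Genes of lipid synthesis and lipid release were mostly higher, by less. Acacb, the acetyl-CoA carboxylase of the mitochondrial surface (chr5:114146321-114250761), had 1562, 666 and 1220.1 normalized reads in CTRL HF and 4131, 14751 and 5432 in VDD HF. The groups did not overlap and the log2 fold change was 2.67 (SE 0.52). Of the 22 de novo lipogenesis genes 19 were higher, but only 7 without overlap, with a median of 0.80 that was 0.45 without VDD HF mouse 2121. That median was 0.52 without CTRL HF mouse 2292 and VDD HF mouse 2083. Its lowest value among all alternatives to the main fit was 0.034. Fasn, the fatty acid synthase, had 6301, 56009 and 8508 in CTRL HF and 28069.7, 87828 and 73632 in VDD HF, with CTRL HF mouse 2291 inside the range of the VDD HF mice. All 20 lipolysis and lipid droplet genes were higher, 10 without overlap, with a median of 0.54. The 26 adipocyte identity genes had a median of 0.25, with 6 higher without overlap (23.1% of members), and the median was 0.47 without CTRL HF mouse 2291 and 0.16 without CTRL HF mouse 2292.

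Other genes with the smallest p-values among those that were higher belonged to no common list. Apoc1, an apolipoprotein, had 982, 1170.1 and 1273 normalized reads in CTRL HF and 3502, 2682 and 3527 in VDD HF. Chdh, the mitochondrial enzyme that oxidizes choline toward betaine, had 553, 439 and 419.7 against 1158, 1136 and 1082. Fmo1, a flavin monooxygenase, had 1860.1, 2020.1 and 1773 against 3939.9, 5833 and 4239. In these 3 genes the groups were far apart and the log2 fold changes were 1.5 (SE 0.17), 1.27 (SE 0.15) and 1.29 (SE 0.18). Adtrp, a hydrolase of fatty acid esters of hydroxy fatty acids, had a log2 fold change of 2.52 (SE 0.36). S100a1, a calcium-binding protein, and Ppa1, a pyrophosphatase, had 1.22 (SE 0.15) and 1.07 (SE 0.14).

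The genes that were lower in VDD HF daughters were led by the extracellular matrix. The 25 collagens had a median log2 difference of -1.42, which lay between -1.81 and -1.07 when any 1 library was left out, and 5 of them had an adjusted p under 0.05 in the fit over 24 libraries, against 0.527% of all genes. Their summed reads were 140959, 140396 and 97760 in CTRL HF and 56124, 34110 and 74422 in VDD HF. Every VDD HF mouse was thus below every control. Col1a1 and Col3a1, the main fibrillar collagens, had log2 differences of -1.80 (SE 0.48) and -1.67 (SE 0.51), and Col4a5, a basement membrane collagen, -1.63 (SE 0.28).

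Of 37 tested matrix and remodelling genes 35 were lower, 21 without overlap, with a median of -0.98. Bgn, the proteoglycan biglycan, had 6329.7, 5336 and 4655 normalized reads in CTRL HF and 2088, 1495 and 2176 in VDD HF. Thbs1, which encodes the matricellular thrombospondin, had 6405, 7440.1 and 7142 against 2833, 1965 and 2689.6. Eln, elastin, had 2235, 1957 and 1527 against 681, 711 and 990. For these 3 genes the groups did not overlap, and the log2 fold changes were -1.51 (SE 0.20), -1.5 (SE 0.18) and -1.27 (SE 0.21). Cilp, a matrix protein of cartilage and other connective tissue, had 1897, 1294 and 1103 against 137, 49.9 and 453, the largest difference of the list at -3.24 (SE 0.72), and Mfap4, a microfibril protein, had -2.92 (SE 0.70).

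Markers of the cells that make matrix were lower as well. Of 19 stromal progenitor genes 18 were lower, 14 without overlap, with a median of -1.0 that was -0.63 without VDD HF mouse 2083. Their summed reads were 62258, 61715 and 64102 in CTRL HF and 42464, 19760 and 36518 in VDD HF. Dpp4, a marker of early progenitors, had 999, 742 and 1477 normalized reads in CTRL HF and 739, 119.5 and 297 in VDD HF, and Pdgfra, a marker of most adipose progenitors, 1413, 989 and 1421 against 902, 526 and 855. Of 14 mesothelial genes, which mark the lining of the peritoneal surface, 10 were lower, 8 without overlap, with a median of -1.36. That median was -0.81 without CTRL HF mouse 2292 and VDD HF mouse 2083. The mesothelial sums overlapped between groups, at 15294, 12900 and 24319 in CTRL HF and 6341, 11824 and 13312 in VDD HF. Whether a share of progenitors or of mesothelium in the samples had a part in the matrix result was not tested.

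All 25 cell cycle genes were lower, 8 without overlap, with a median of -0.91 (-0.59 without VDD HF mouse 2083). Of 24 complement genes 23 were lower, 7 without overlap, with a median of -0.75 (-0.43 without VDD HF mouse 2083). Without CTRL HF mouse 2292 and VDD HF mouse 2083 the medians were -0.35 for the cell cycle and -0.26 for complement. The exception among the complement genes, Cfd, was higher without overlap, with a log2 difference of 1.10 (SE 0.70). The summed complement reads overlapped between groups, at 199961, 160003 and 271335 in CTRL HF and 466597, 203447 and 279689 in VDD HF. Mouse 2083 was the lowest VDD HF mouse in 24 of the cell cycle genes and in 22 of the complement genes.

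Among the imprinted growth genes 21 of 25 were lower, 5 of them without overlap (20% of members, against 11.8% of all genes), with a median of -0.40. Peg10, a retrotransposon-derived gene expressed from the paternal allele (chr6:4747306-4760517), had 493, 463 and 565 normalized reads in CTRL HF and 151, 149 and 191 in VDD HF, a log2 fold change of -1.63 (SE 0.17, adjusted p = 0.131). Mest, a paternally expressed gene tied to fat expansion (chr6:30733506-30748466), had 3759, 3204 and 1294 against 598, 413 and 605, -2.23 on the log2 scale (SE 0.40). Neither gene overlapped between groups, and the lowest control value of Mest came from mouse 2292. Rian and Meg3, non-coding RNAs of the Dlk1-Dio3 domain, had -1.90 (SE 0.37) and -0.94 (SE 0.20). Of the 9 fat expansion genes, which include Mest, 8 were lower and 2 did not overlap, with a median of -0.93 (-1.42 without CTRL HF mouse 2292).

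The remaining genes with the smallest p-values in this direction had different roles. Abat, the enzyme that breaks down the transmitter GABA, had 577, 767 and 637 normalized reads in CTRL HF and 151, 135 and 280.3 in VDD HF. Tmem108, a transmembrane protein, had 97.3, 73.6 and 127 against 10.9, 5.2 and 18.6, and Enpp3, an ectonucleotidase, 298, 341 and 243 against 80.2, 82.1 and 113. None of the 3 overlapped, and their log2 fold changes were -1.87 (SE 0.29), -3.11 (SE 0.49) and -1.67 (SE 0.23). Stxbp6, Cd200, Il17rd, Sh3d19 and Adamtsl5 were lower by less, between -0.88 (Cd200) and -1.17 (Stxbp6). Tnfrsf11b, osteoprotegerin, had a log2 difference of -2.92 (SE 0.56). Cdh16, a cadherin of kidney epithelium, and Cuzd1 had the largest values, -5.35 (SE 1.35) and -4.99 (SE 1.34), at low and uneven read numbers, 288, 420.4 and 63.3 against 0.0, 2.1 and 36.1 for Cdh16. The summed ovary and uterus list was 4650, 2749 and 10139 in CTRL HF and 1674, 1097 and 5723 in VDD HF, and its part in these values was not tested.

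The inflammatory lists differed in how many genes were without overlap. Of 23 macrophage genes 18 were lower with 2 not overlapping, a share under the 11.8% background, and the median of -0.39 was -0.97 without VDD HF mouse 2081 and -0.043 without VDD HF mouse 2083. Adgre1, which encodes the macrophage antigen F4/80, had 648, 582 and 703 normalized reads in CTRL HF and 1152, 198 and 272 in VDD HF, with mouse 2081 above and the other two VDD HF mice below all controls. Itgax, the CD11c gene, and Ccl2, the monocyte chemokine, had log2 differences of 0.72 (SE 0.73) and -0.71 (SE 0.83). Their direction rested on 1 mouse each, since Itgax was -0.16 without VDD HF mouse 2081 and Ccl2 was 0.24 without VDD HF mouse 2083. Of 16 inflammatory cytokines and receptors 3 were lower and 1 higher without overlap, and of 30 interferon response genes 5 were lower and 1 higher. The medians were 0.018 over 14 NF-kB subunits and inhibitors (-0.060 to 0.11 when 1 library was left out) and 0.065 over 20 genes of p38 and MAP kinase signalling (0.024 to 0.14). Nfkb1, Rela and Mapk14 had differences of -0.24, 0.19 and 0.045. Of the acute phase genes 9 of 11 were lower with 1 not overlapping, Lcn2, at -1.89 (SE 0.42). In the T and NK cell list 6 of 20 genes were higher without overlap, above the 11.1% background, with a median of 1.42 that was 0.35 without VDD HF mouse 2081, the highest mouse in 19 of its 20 genes.

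Of the 15 listed vitamin D genes 7 passed the read minimum, 2 higher and 5 lower, with a median of -0.10 that was -0.56 without VDD HF mouse 2121 and -0.013 without CTRL HF mouse 2291. Vdr was low in all libraries, at 59.7, 62.4 and 68.5 normalized reads in CTRL HF and 36.7, 38.5 and 35.0 in VDD HF. The groups did not overlap, but the log2 fold change of -0.77 (SE 0.24) had an adjusted p of 0.211. Lrp2, the receptor megalin that takes up vitamin D bound to its carrier, had 246, 379.5 and 587 against 95.1, 8.3 and 92.0, a log2 difference of -3.12 (SE 0.90) that was -2.01 without VDD HF mouse 2083. The hormone leptin (Lep) had 7309, 15326 and 3098 against 3608, 3052 and 5639, overlapping groups, and a log2 difference of -0.83 (SE 0.56) that was -0.26 without CTRL HF mouse 2291 and -1.42 without CTRL HF mouse 2292.

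The same maternal contrast was made in low-fat-fed daughters and in high-fat-fed sons, which share no library with the 6 mice above. In each group of those contrasts 1 of the 3 libraries carries the word renal in its column name, which none of the 6 libraries above does, and no source used here says what the word marks. In each, limma called 0 genes (of 16046 and 16013 tested), with 1933 and 850 at an unadjusted p under 0.05. The difference between the contrasts was tested with an interaction term, which also called 0 genes for diet in the females (1353 at an unadjusted p under 0.05 of 17474, smallest adjusted p 0.569) and 0 for sex on the high-fat diet (1845 of 17531, smallest adjusted p 0.115). No gene can therefore be called particular to the high-fat daughters.

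The gene groups were followed across the 3 contrasts as a description. The respiratory chain had a median log2 difference of 1.07 in high-fat daughters, 0.53 in low-fat daughters and 0.29 in high-fat sons. Fatty acid oxidation had 1.23, 0.094 and 0.26, and the thermogenic list 2.10, 0.20 and 0.87. The collagens had -1.42, -0.96 and -0.049, the stromal progenitor genes -1.0, -0.27 and -0.39, and the cell cycle genes -0.91, -0.91 and 0.22. The collagens and the cell cycle genes were thus near or above 0 in the sons, while the respiratory chain, fatty acid oxidation and thermogenic medians were positive in all 3. All 60 respiratory chain subunits were higher in low-fat daughters too, and 59 of them in high-fat sons. The skeletal muscle list had medians of 0.32, 0.78 and 5.58, with 21 genes higher and 0 lower in the sons. The part of muscle transcripts in the other medians of the sons was not tested. Branched-chain amino acid breakdown had 0.66, 0.050 and -0.080. Across 15613 genes tested in both, the log2 differences of high-fat and low-fat daughters correlated with Pearson's r of 0.34 and Spearman's rho of 0.39, and against high-fat sons with 0.056 and 0.062. Genes are not independent replicates, and no p is given.

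**Figure D4:**
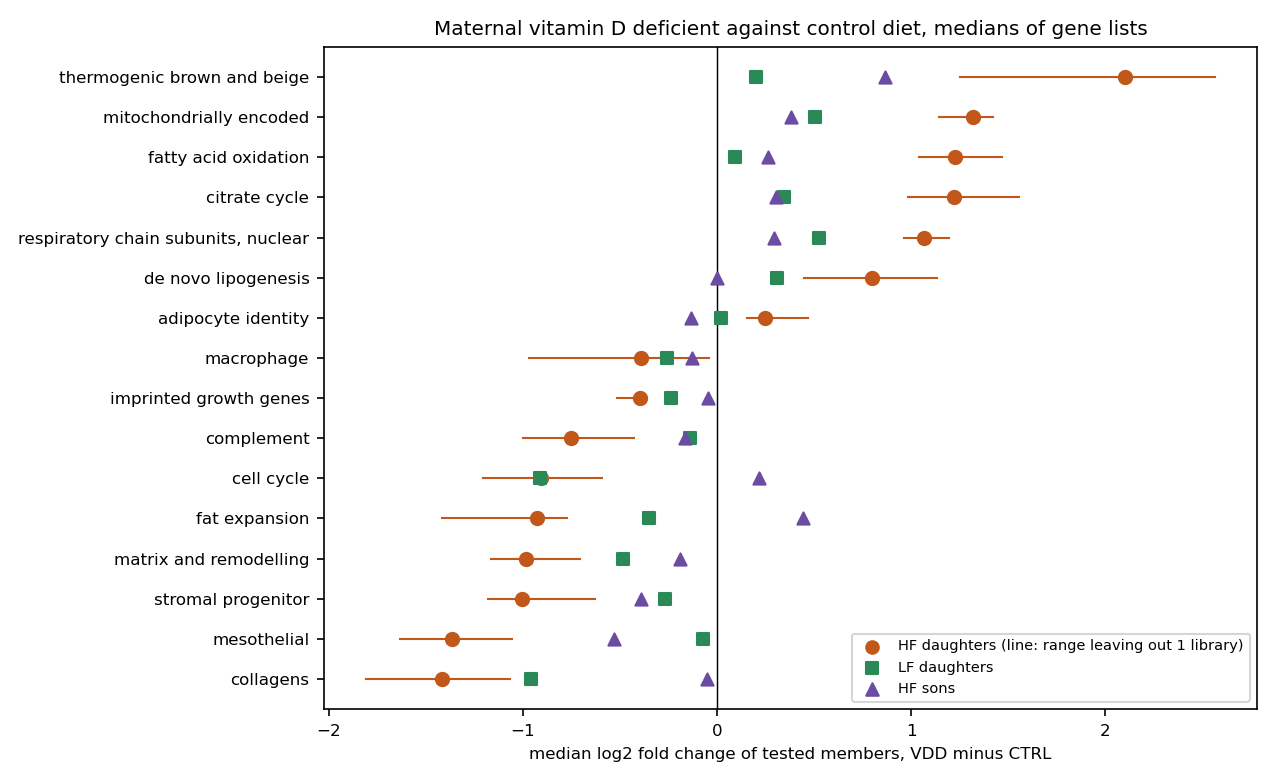
Median log2 fold change (VDD minus CTRL, horizontal axis) of the tested members of 16 gene lists in high-fat daughters (circles), low-fat daughters (squares) and high-fat sons (triangles), each from 3 against 3 mice. Lines through the circles show the range of the median when 1 of the 6 libraries is left out and are not confidence intervals; the thermogenic line is the longest, from 1.25 to 2.56.

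Sephs2 had the smallest p in both interactions. Its maternal difference was larger in high-fat than in low-fat daughters by 1.16 on the log2 scale (adjusted p = 0.569) and larger than in high-fat sons by 1.90 (adjusted p = 0.115). On a common scale over all 24 libraries Sephs2 lay between 632 and 648 normalized reads in CTRL HF daughters and between 1420 and 2096 in VDD HF daughters. Low-fat daughters lay at 1605 to 1686 (CTRL) and 1660 to 2328 (VDD), and high-fat sons at 864 to 1306 (CTRL) and 726 to 766 (VDD). The VDD HF daughters thus overlapped the low-fat daughters, and the CTRL HF daughters were the lowest of these groups.

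Acacb and Peg10 had a like arrangement of ranges on that scale. Acacb lay between 624 and 1504 in CTRL HF daughters, 3908 and 13917 in VDD HF daughters and 7245 and 9794 in CTRL low-fat daughters. Peg10 lay between 434 and 540, 140 and 179, and 147 and 328 in these groups. In both genes the VDD HF range overlapped the CTRL low-fat range and the CTRL HF range did not. Cox8b differed, with 112 to 272 in CTRL HF daughters, 943 to 4971 in VDD HF daughters and 569 to 1383 in CTRL low-fat daughters, so that the VDD HF range extended above the low-fat range. Nrg4, a secreted factor of thermogenic fat, also had a larger maternal difference in high-fat daughters, by 1.29 than in low-fat daughters and by 1.56 than in sons (adjusted p = 0.569 and 0.184). Prkcz, an atypical protein kinase C, and Hdac11, a histone deacetylase, had negative interactions with diet of -2.06 and -1.52 (adjusted p = 0.569). Eda2r, a receptor of the tumour necrosis factor receptor family, and Gadd45a, a stress-induced cell cycle inhibitor, had interactions with sex of -3.07 and -1.69 (adjusted p = 0.115 and 0.160).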

How the data were processed

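RNA from retroperitoneal fat of 24 mice (3 per group) was sequenced as stranded mRNA libraries. Per the study's methods and the submitters' processing notes, the authors used Sickle for trimming and STAR 2.7.0d for alignment to mm10, keeping unique alignments, added transcripts with Cufflinks 2.2.1, counted with featureCounts 1.6.1 and normalized with DESeq2. The deposited values are log2(normalized reads + 1). Fold changes and p-values of the authors' own comparisons in the same tables, and 4 tables of diet comparisons, were not used. Of 56899 entries, 4 with a duplicated date-like name were left out, and 22 other date-like names remain as deposited.

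Reads were recovered from the log2 values (100.0% whole within 0.02). They are 13346779 to 18484346 per library, and genes with few reads are imprecise. Where libraries of several tables were combined, the recovered reads were scaled together by the median of ratios. The log2 values were tested with limma 3.58.1 (lmFit, eBayes with trend, R 4.3.3), for genes that reached 10 normalized reads in 3 or more libraries, with Benjamini-Hochberg adjustment. Interactions were fitted over the 12 libraries concerned. An exact permutation test of 3 against 3 mice cannot go below p = 0.1, so none was used for single values. The scripts were tested on simulated data. Alternatives were other filters, pseudocounts, scalings, limma-voom, array weights, wider fits and leaving out libraries, 3 of them added after seeing the data.

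The gene lists (64, by function or cell type) and named genes were chosen with earlier results of these data known. A list is described by how many members were higher or lower, how many did not overlap between groups and its median. Some genes are members of more than 1 list, such as Sdhb in the respiratory chain and citrate cycle lists, so lists are not independent. The genes named were drawn from the 12 with the smallest p and the 6 with the largest fold at p under 0.01 in each direction (fold limits passed, no overlap, mean of at least 50 normalized reads), 12 adipokine, vitamin D and inflammation genes, the first 2 and the 3 smallest p of each list, the 4 smallest p in each direction of each interaction, and the 5 genes with most reads. P2rx5, Meg3, Acadvl, Hadhb, Ppara and the genes with printed promoters were chosen after their values were seen. Gene positions and promoters are from RefSeq tables on GRCm38.p6.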

Additional observations from a re-analysis of the deposited data

How the results depend on the processing

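Of 1319 values of single genes under the alternatives, 1311 kept their direction and their side of the threshold, 4 crossed it (Sephs2, Cox8b, Acacb and P2rx5 in the fit over 24 libraries) and 4 reversed. Those were Itgax (-0.16 without VDD HF mouse 2081, within a range of -0.16 to 1.17 when 1 library was left out), Ccl2 (0.24 without VDD HF mouse 2083, within -1.52 to 0.24, and 0.096 without CTRL HF mouse 2292 and VDD HF mouse 2083, which had the most muscle transcripts) and Fasn (-0.17 without CTRL HF mice 2290 and 2292 and VDD HF mouse 2121, which had the most steroidogenic and ovarian transcripts). Many of these genes were named because their groups did not overlap, and leaving out libraries cannot reverse such a gene. In the fit over the 6 libraries no gene passed the rule, so keeping the side of the threshold meant not being called. The rule called 0 genes except in the fit over 24 libraries, where it called 5, or 273 at an adjusted p under 0.05 with no fold limit. In the fit over the 6 libraries 822 genes passed the unadjusted rule. Array weights gave 252 genes at an adjusted p under 0.1 and none that passed the rule. The unadjusted counts, 431 higher and 391 lower, became 683 lower with no read minimum, 271 higher with upper quartile scaling, 731 lower in the fit over 12 females and 656 lower over 24 libraries. Leaving out 1 library gave 212 to 572 higher and 99 to 848 lower genes. Without the pair of mice with muscle transcripts they were 117 and 136, and without the 3 mice with steroidogenic transcripts 72 and 125. The last setting leaves 1 control mouse, 2291, against 2 VDD HF mice, and assumes that the lone control varies like the VDD HF mice, so the value of Fasn and the counts and medians under it rest on that mouse. In list medians, matrix and remodelling ran from -1.17 to -0.71 when 1 library was left out, the thermogenic median was 1.19 and the macrophage median reversed to 0.063 without the muscle pair, and the respiratory chain median was 0.78 without the 3 mice. High-fat sons gave 0 to 142 called genes, 142 without VDD HF male 2308. Beyond the alternatives' own smaller samples, the cause of these changes was not tested. No paired analysis was possible because the columns carry mouse numbers and not the replicate numbers of the labels. Genes near the minimum of 10 normalized reads are limited by depth.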

Other observations

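Further gene lists gave the following values in high-fat daughters, to be read against the 11.1% of all genes that were higher and 11.8% that were lower without overlap. All 34 proteasome genes were higher in VDD HF, 11 of them without overlap, with a median log2 difference of 0.37. Of 20 genes of fatty acid uptake and triglyceride synthesis 18 were higher, 7 without overlap, with a median of 0.65. Of 34 genes of NRF2 and glutathione defence 30 were higher but 5 without overlap, with a median of 0.37. Gpx3, a secreted glutathione peroxidase that contains selenocysteine, had 15355, 8099 and 21397 normalized reads in CTRL HF and 31495, 36152 and 32888 in VDD HF. Gpx4, the selenocysteine peroxidase of membrane lipids, had 4347, 7733 and 5414 against 10096, 9585 and 9734. Neither overlapped, and the log2 differences were 1.27 and 0.79 (adjusted p = 0.202 and 0.201, limma). In low-fat daughters the differences were 1.43 and 0.51, and in high-fat sons -0.36 and 0.018. Selenocysteine proteins were not compared as a set.

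The glucocorticoid response genes had a median of 0.87, with 2 of 15 without overlap, that was 0.28 without VDD HF mouse 2083. Of 24 genes of hypoxia and glycolysis 18 were higher, 6 without overlap, with a median of 0.58. Smooth muscle and pericyte genes had a median of -1.19, with none lower without overlap, that was -0.42 without VDD HF mouse 2081. The medians of 50 ribosomal protein genes (0.076), 35 chromatin regulators (-0.030) and 24 genes of the unfolded protein response (-0.12) were near that of all genes, and the first was -0.11 without VDD HF mouse 2081.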
